A study of Arabidopsis thaliana with 88 samples.

Results

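The mitochondrial genome transcripts of Arabidopsis thaliana were taken as every locus whose identifier begins with ATMG, which gave 122 of the 33681 loci listed in the count files. Of these, 48 passed the filter on low values (2 CPM, that is reads scaled to the total of assigned reads of a library, in at least 6 libraries), 74 did not, and 6 had no read in any grouped library. The 48 held 99.8% of the mitochondrial reads. A locus could pass through a single set of libraries in which it was high, and 30, 35 and 30 of the 48 had a median of 2 CPM or more in plate roots, soil roots and soil shoots.

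The libraries came from diploid (2x) plants and from neo-tetraploid (4x) plants made by colchicine treatment, in a study of how genome doubling alters mineral nutrition. Both ploidies were present for 5 genotypes, namely wild-type Col-0 (WT), sos3-2 (a calcium sensor of the salt overly sensitive pathway), esb1-1 (a protein needed for the Casparian strip), the double mutant rhd6-3/rsl1-1 (basic helix-loop-helix factors needed for root hairs) and a line labelled chx25-3 (cation/H+ exchanger family). The chx line is named chx23-4 in the data availability statement of the study, and the label is used here. There were 3 sets. Plate roots came from plants grown for 2 weeks on agar plates with MS salts and sucrose under long days. Soil roots and soil shoots came from plants grown for 5 weeks in peat-based soil under short days. Plants were pooled in a plate library, and a soil library was a single plant. Each neo-tetraploid mutant descended from a single treated lineage, so that a difference between ploidies in a mutant cannot be told apart from a difference between lineages. Of 88 libraries, 86 fell into 30 groups, 26 of them with 3 libraries. The diploid sos3-2 and rhd6-3/rsl1-1 plate roots and the neo-tetraploid chx25-3 soil roots and shoots had 2, and in a further 2 libraries the title and the genotype label disagreed, so that they entered no comparison.

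The plant mitochondrial genome encodes subunits of the respiratory complexes, factors for cytochrome c maturation, ribosomal proteins, ribosomal RNAs and transfer RNAs, and many open reading frames without a known role. Mature mitochondrial transcripts of plants carry no stable poly(A) tail. A tail added there marks RNA for decay, and oligo-dT can also prime on A-rich stretches inside a transcript, so that the oligo-dT primed 3′ libraries used here counted captured molecules, which need not follow the amount of each RNA. A large, nearly identical copy of the mitochondrial genome lies in chromosome 2 of the nucleus, and reads from either are hard to separate.

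The sequences of the loci on which the results turned are shown around their longest run of A, since such a run is where oligo-dT could anneal within a transcript. They were taken from RefSeq (assembly TAIR10.1, mitochondrial genome) and read 5′ to 3′ on the coding strand, and capitals mark runs of 4 or more A.
rrn26: gaaacttccaggAAAAAActtcgaattggg
rrn18: ctgaagaaagctAAAAAgcgctgtttgatg
rrn5: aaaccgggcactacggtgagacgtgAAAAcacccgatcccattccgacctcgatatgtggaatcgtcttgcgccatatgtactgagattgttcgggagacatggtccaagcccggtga
rps3: gggttggccgAAAAAAAAAcaacgctatgg
atp1: ccgacaaactggAAAAAcgactattgctat
nad9: agaaatgggtcAAAAAAAtggaaagatcgg
The windows of rrn26 (26S ribosomal RNA, mitochondrial bases 140797 to 143965, minus strand), rrn18 (18S ribosomal RNA, 126289 to 128223, minus) and atp1 (a subunit of ATP synthase, 67098 to 68621, minus) are 30 bases long, as are those of rps3 (a protein of the small ribosomal subunit, 20165 to 23418, plus, with the coding sequence in pieces) and nad9 (a subunit of complex I, 24665 to 25237, plus). The 5S ribosomal RNA gene rrn5 (126001 to 126118, minus) is given whole. The run of 9 A in rps3 was the longest among 33 mitochondrial genes whose sequences were read, over which the median longest run was 5. AAAAAA on the coding strand occurred in 13 of the 33 (39.4%), and a match describes the letters alone.

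Gene names were used where the RefSeq notes or the length of the transcript tied a name to a locus, and other loci are given by identifier. ATMG00020 is the 26S ribosomal RNA locus in the usual naming of these loci, although its listed length of 2568 bases differed from the 3169 bases of rrn26 in RefSeq. It is counted here with rrn18 (ATMG01390) and rrn5 (ATMG01380) as ribosomal RNA.

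Ribosomal RNA made up most of what was captured. ATMG00020 alone took 59.6% of all mitochondrial reads, the 3 ribosomal RNA loci together 67.7%, and the 10 loci with most reads 94.0%. After ATMG00020 came ATMG00030 (13.6%), rrn18 (6.09%), ATMG00500 (3.32%), the cytochrome c maturation gene ccmFC (ATMG00180, 3.00%), rrn5 (2.06%), atp1 (1.97%), rps3 (1.68%), nad4 (ATMG00580, a complex I subunit, 1.37%) and ATMG00690 (1.28%). These are shares of reads and not levels per length. On TPM, which divides by length, the 118-base rrn5 took a median of 69.2% of the mitochondrial total in plate roots, 54.6% in soil roots and 57.1% in shoots. Its share of mitochondrial reads in these sets was 1.88%, 2.13% and 2.63%. Since the 3′ libraries counted captured molecules, division by length raises short loci, and the TPM share is not a better measure of level.

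The makeup differed between the sets. ATMG00020 took 75% of the mitochondrial reads in plate roots, 47.7% in soil roots and 36.4% in soil shoots, whereas ATMG00030 took 7.24%, 19.6% and 19.6%. The protein genes rps3 and atp1 ranked 15 and 11 in plate roots with 0.144% and 0.309% of the mitochondrial reads, and 7 and 6 in soil roots with 3.04% and 3.27%. ATMG00500, a locus of 426 bases with no name, took 2.39%, 3.55% and 6.50%.

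As a share of all assigned reads, mitochondrial loci were a small fraction in every set. In plate roots they took between 0.191% and 1.61% (median 0.775%), in soil roots between 0.387% and 0.898% (median 0.630%), and in soil shoots between 0.101% and 0.311% (median 0.206%). Plate roots had the widest range and enclosed that of soil roots, and every shoot library lay below every soil root library. The mean was 0.808% ± 0.361 (SD, n = 28), 0.660% ± 0.140 (SD, n = 29) and 0.208% ± 0.0507 (SD, n = 29).

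**Figure D1:**
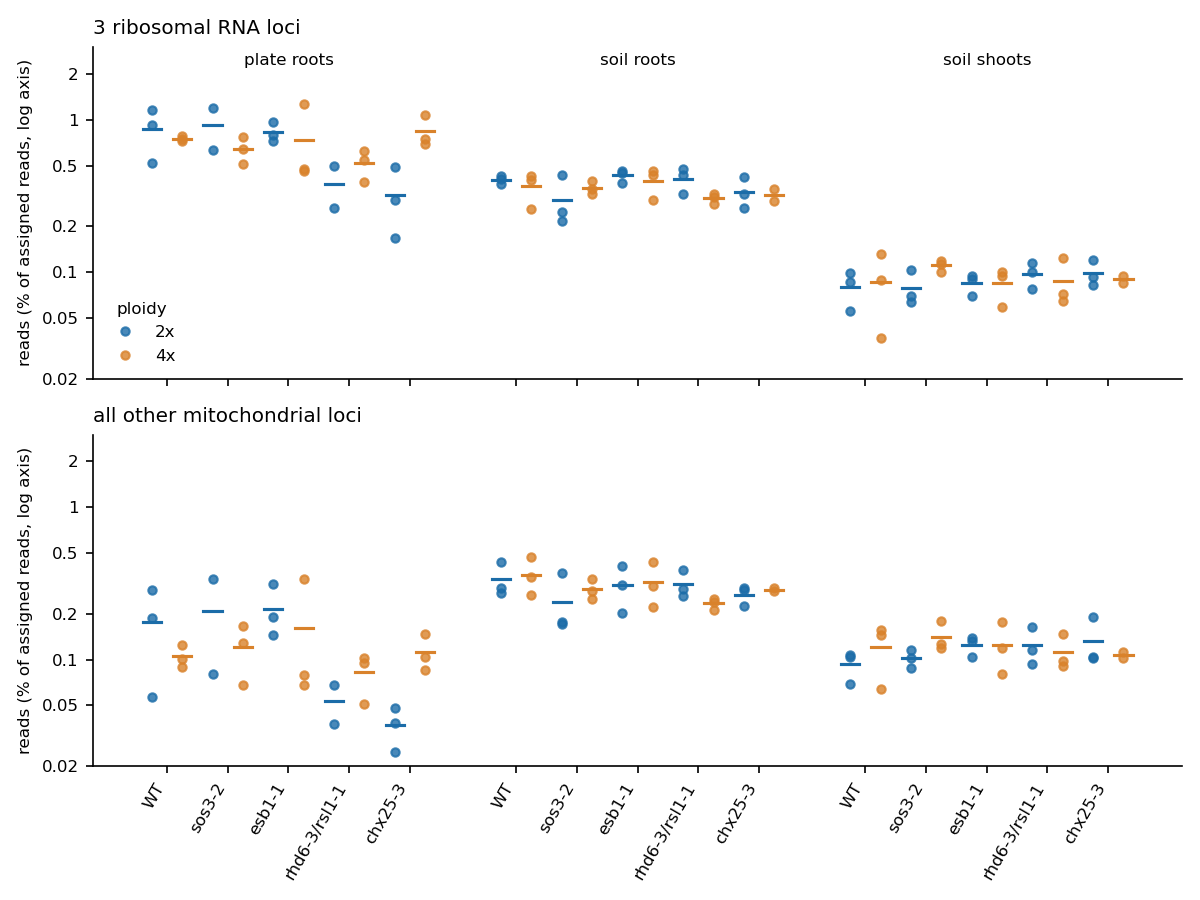
Share of assigned reads (percent, log axis) on the mitochondrial ribosomal RNA loci and on the other mitochondrial loci, with 1 point per library, by set, genotype and ploidy. Ribosomal RNA was higher in plate roots (median 0.668%) than in soil roots (0.381%), the other loci were lower (0.0979% against 0.285%), and soil shoots were lowest for ribosomal RNA (0.0928%).

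The depth was between 3292996 and 10246400 assigned reads a library for plate roots, between 5850010 and 10435900 for soil roots, and between 4698910 and 8635530 for soil shoots. In these totals 3 reads, the limit that a count of 0 allows, corresponded to between 0.287 and 0.911 CPM. This covers counting error only. The defining genes of each organ stood where the labels placed them. RBCS1A, a small subunit of Rubisco, stood between 8199 and 17257 CPM in shoots and at most 62.9 CPM in roots, and the root phosphate transporter PHT1;1 reached at most 1.2 CPM in shoots. P-values below measure the spread between these libraries, and in bulk tissue fewer cells of a type and less RNA per cell cannot be told apart.

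The total share did not separate soil roots from plate roots, and its parts lay on opposite sides. On the log2 scale the total was 0.16 lower in soil roots (-0.16, SE 0.126, permutation P = 0.241 within genotype and ploidy, 0.584 after Benjamini-Hochberg adjustment over 17 share tests), higher in 2 of 10 genotype and ploidy groups. Ribosomal RNA alone was lower by 0.80 on that scale (-0.80) and the remaining loci were higher by 1.51, each with permutation P = 1e-05, the smallest that 100000 draws can give, and both passed the threshold of 0.05 after adjustment. In every plate library ribosomal RNA was between 75.6% and 91.1% of the mitochondrial reads, in soil roots between 47.5% and 65.4%, and in shoots between 34.5% and 49.9%, without overlap between plate and soil roots. Plant age, medium, day length and pooling differed together between the root sets and cannot be told apart from soil. The chloroplast share was also higher in soil roots (median 0.862% against 0.220%), and its part in the difference was not tested.

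Gene by gene, 29 of the 48 tested loci (60.4%) differed between soil roots and plate roots, 26 higher in soil and 3 lower, against a background of 47.6% called over all 20347 genes tested, 24.3% higher and 23.2% lower. A call required an adjusted P under 0.05 in the quasi-likelihood test of edgeR and a log2 fold change of at least 0.5 in size. The median log2 fold change of the 48 was 0.82, beside 0.042 over all genes. Without a filter, 42 of 116 loci with reads were called, 36 of them higher, with a median of 0.46. DESeq2 called 30 and limma-voom 31.

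The ribosomal protein genes were higher in soil roots in each of the 5 tested cases out of 7 listed, with a median log2 fold change of 2.71. The value of rps3 (ATMG00090) was between 1.99 and 47.2 CPM in plate roots (median 5.36) and between 93.0 and 341 CPM in soil roots (median 197). No plate library reached the lowest soil library, and the log2 fold change was 4.46 (SE 0.213, edgeR adjusted P = 5.16e-28). For rpl2 (ATMG00560), a protein of the large ribosomal subunit, the plate values ran from 0 to 14.2 CPM (median 2.83) and the soil values from 15 to 44.9 CPM (median 25.1), also without overlap, with a log2 fold change of 2.71 (SE 0.190). These were the only 2 of the 48 loci whose sets did not overlap, where 8.72% of all genes tested did not, 3.94% higher and 4.78% lower in soil.

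The other ribosomal protein genes overlapped between the sets. rpl16 (ATMG00080) went from 1.76 to 31.3 CPM on plates (median 5.21) and from 24.4 to 77.2 CPM in soil roots (median 55.5), a log2 fold change of 2.74 (SE 0.179). The small subunit genes rps12 (ATMG00980) and rps7 (ATMG01270) had log2 fold changes of 2.05 and 1.98, and each was at 0 in at least 1 soil root library.

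Genes of the respiratory chain with a name tied to the reference were called higher or not called. Of the ATP synthase genes, atp1 (ATMG01190), for the alpha subunit, was at 0 to 99.4 CPM on plates (median 12.5) and at 90.2 to 303 CPM in soil roots (median 226). Its log2 fold change was 3.56 (SE 0.223, edgeR adjusted P = 2.42e-22), and the highest plate value lay inside the soil range. atp9 (ATMG01080), the membrane ring subunit, had a log2 fold change of 2.95, and atp6-1 (ATMG00410), a membrane subunit, one of -0.28, which was not called.

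In complex I, 2 of 5 tested genes with such a name were called. nad4 (ATMG00580) was at 0 to 93.2 CPM on plates (median 18.3) and at 66.2 to 204 CPM in soil roots (median 125), a log2 fold change of 2.41 (SE 0.217). nad9 (ATMG00070) was at 17.6 to 91.1 CPM (median 51.8) against 52.4 to 102 CPM (median 81.0), a smaller difference with a log2 fold change of 0.53 (SE 0.0974). The cytochrome c oxidase genes cox2 (ATMG00160) and cox3 (ATMG00730) had log2 fold changes of 0.78 and 1.27, and ccmFC (ATMG00180), which acts in attaching heme to cytochrome c, one of 0.63.

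Most of the called loci had no name tied to them by the RefSeq notes or the length (29 tested, 14 higher and 2 lower). In the usual naming of these loci ATMG00570 is the transporter gene mttB, and ATMG00513 and ATMG00285 belong to the complex I genes nad5 and nad2. ATMG00513 and ATMG00285 were called higher, with log2 fold changes of 1.98 and 1.65. ATMG00570 was at 0.202 to 60.7 CPM on plates (median 3.07) and at 31.1 to 105 CPM in soil roots (median 73.5), a log2 fold change of 3.47 (SE 0.297). ATMG00690 went from a median of 15.7 CPM to 120 CPM (log2 fold change 2.42) and ATMG00030 from 372 CPM to 1088 CPM (1.34, SE 0.225), both with overlapping sets. ATMG01160 had a fitted log2 fold change of 3.73, but its median was 0 CPM in plate libraries and it was at most 3.04 CPM in soil roots. ATMG00500 differed little, with medians of 193 CPM and 239 CPM and a log2 fold change of 0.27, which was not called.

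The 3 loci that were lower in soil roots included the main ribosomal RNA loci. ATMG00020 was at 1466 to 11512.5 CPM on plates (median 5864) and at 1864 to 4134 CPM in soil roots (median 3234), a log2 fold change of -0.998 (SE 0.125, edgeR adjusted P = 1.57e-10). rrn18 (ATMG01390) was at 186 to 1101 CPM against 213 to 473 CPM, with medians of 586 CPM and 347 CPM and a log2 fold change of -0.84 (SE 0.130). Both soil ranges lay inside the plate ranges. rrn5 (ATMG01380) was at 17.3 to 317 CPM on plates (median 155) and at 73.1 to 239 CPM in soil roots (median 132), and its log2 fold change of -0.13 (SE 0.129) was not called. The third was ATMG00516, which in the usual naming of these loci holds a part of the complex I gene nad1, a name that the reference did not support by note or length. It was at 4.25 to 34.2 CPM (median 18.6) against 2.34 to 7.70 CPM (median 5.55), a log2 fold change of -1.76 (SE 0.132).

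**Figure D2:**
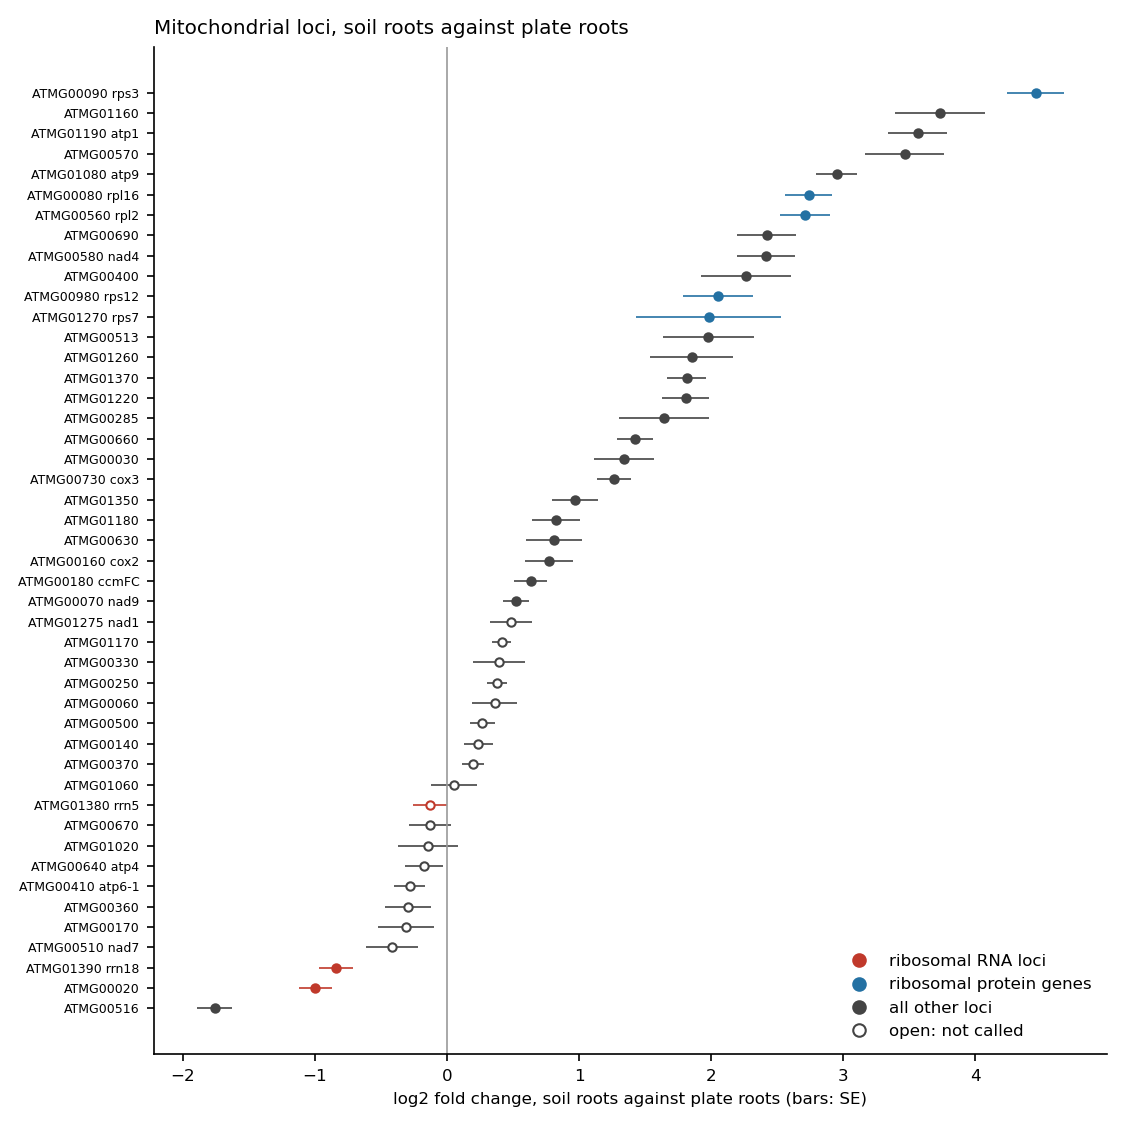
Log2 fold change of soil roots against plate roots for 46 tested mitochondrial loci, with bars for the SE. Filled points were called and open points were not, red marks ribosomal RNA loci and blue ribosomal protein genes, and 2 loci with a very wide SE are not drawn. The ribosomal protein genes lie between 1.98 and 4.46, and ATMG00020 and rrn18 lie at -0.998 and -0.84.

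How reads were split between a locus and its chromosome 2 copy changed some of these values. RefSeq notes paired 34 mitochondrial loci with a named copy in the nucleus, the copy held more reads than the locus in 25 of the pairs, and the locus held under 1% of the reads in 7. Of the 33 mitochondrial genes compared by blastn with chromosomes 1 to 5, 16 had a full-length copy, and 12 of those copies were identical. All lay on chromosome 2 between bases 3239693 and 3473692 (TAIR10.1). Coding pieces were joined and only the longest single match was kept, so that a gene with introns could not count as full-length. For 7 genes, rps3 and the 3 ribosomal RNA genes among them, no single match covered 10% of the length.

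The gene atp9 was the clearest case. On plates ATMG01080 had a median of 3.95 CPM and its copy AT2G07671 one of 57.1 CPM, in soil roots 34.0 CPM and 11.3 CPM, and in shoots 14.4 CPM and 6.83 CPM. The locus thus held 7.05%, 73.6% and 69.5% of the reads of the pair. With the copy added, the log2 fold change of soil roots against plate roots turned from 2.95 to -0.38 (edgeR adjusted P = 0.00124, under the size required for a call).

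For atp1 the result changed little. ATMG01190 and the identical copy AT2G07698 on chromosome 2 (bases 3362505 to 3364028) had medians of 12.5 and 17.1 CPM on plates and of 226 and 140 CPM in soil roots, and the log2 fold change of the pair was 3.07. That of ATMG00500 with AT2G07708 was 0.71, which was called. For the cytochrome b gene cob (ATMG00220), for rps4 (ATMG00290) and for ATMG00590, the mitochondrial locus was at or near 0 while the copy took the reads. With the copies added, log2 fold changes were 0.76 for cob, 3.4 for rps4, 1.99 for ATMG00590, 1.64 for nad3 (ATMG00990) and 2.83 for rpl5 (ATMG00210), and 40 of 59 loci were called, 37 of them higher in soil roots. In that fit 9678 genes of the genome were called. The median of the 59 loci was 0.76, beside 0.042 over all genes.

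**Figure D3:**
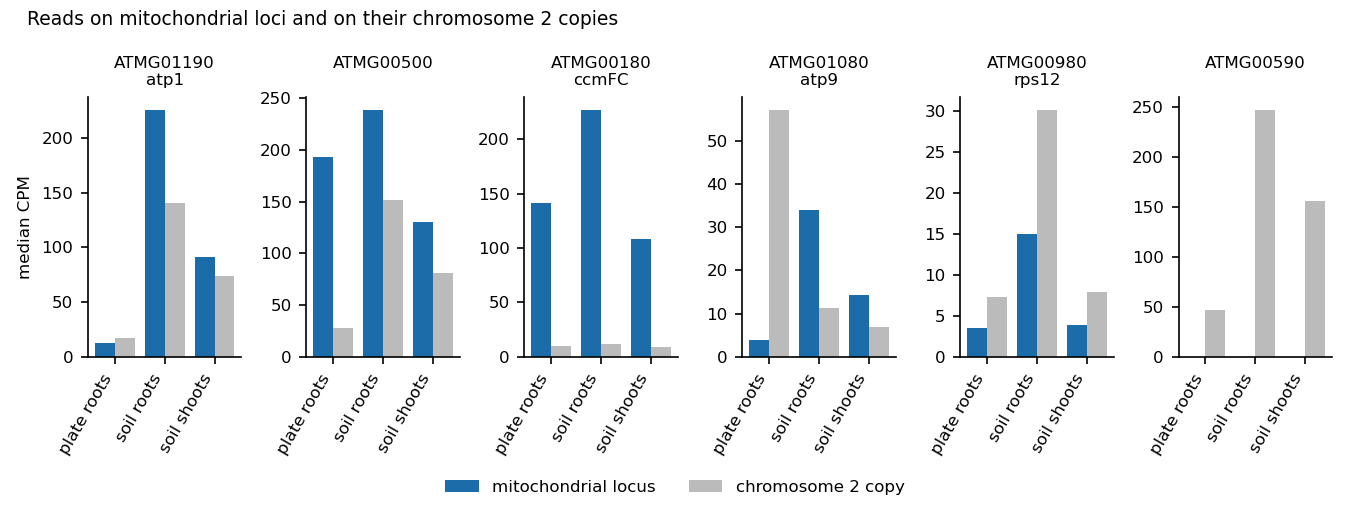
Median CPM of selected mitochondrial loci (blue) and of their chromosome 2 copies (grey) in plate roots, soil roots and soil shoots. For atp9 the copy is the taller bar on plates (57.1 against 3.95 CPM) and the shorter one in soil roots (11.3 against 34.0 CPM), and ATMG00590 is at 0 beside a copy with a median of 248 CPM in soil roots.

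Nuclear genes for the mitochondrion were counted as 3 lists, beside the 24.3% higher and 23.2% lower among all genes. Of 14 tested genes for RNA polymerases and RNA processing, 4 were higher in soil roots than in plate roots and 0 lower (median log2 fold change 0.34). These included OTP43 (AT1G74900), which acts in splicing of a mitochondrial intron, at 1.91, the maturase nMAT1 (AT1G30010) at 1.22, and the mitochondrial RNA polymerase gene AT1G68990 at 0.97. Of 22 nuclear subunits of the respiratory chain, 1 was higher and 14 were lower (median -0.72), with cytochrome c gene CYTC-2 (AT4G10040) at -2.13 and the complex II gene SDH2-1 (AT3G27380) at -1.68. Of 7 mitochondrial stress genes, 0 were higher and 5 lower (median -0.83), including the alternative oxidase gene AOX1A (AT3G22370) at -2.44. The median of the nuclear respiratory list thus lay below 0 and that of the 48 mitochondrial loci above it (0.82), beside 0.042 over all genes. The named mitochondrial genes of complexes I, IV and V had medians of 0.53, 1.02 and 1.39. Among them nad7 (-0.41), atp6-1 (-0.28) and atp4 (-0.18) lay below 0, as did atp9 with its copy added (-0.38). With copies added, atp1 (3.07) alone of the named complex V genes lay above 0, so that their median of 1.39 rested on atp9 without its copy. The mitochondrial values count captured molecules, as described above.

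Between shoots and soil roots the share of reads fell. It was 1.67 lower on the log2 scale (-1.67, SE 0.0918, permutation P = 1e-05, the smallest possible with 100000 draws, 0.00017 after adjustment), with 0 of 10 groups higher in shoots. Shoot and root libraries of the same line and ploidy mostly carried adjacent numbers in the deposited data, such as 45 and 46 in neo-tetraploid sos3-2. Whether they came from the same plant was not known here, and the tests between these sets took them as independent. With chloroplast reads left out of the total, the medians were 0.232% in shoots and 0.636% in soil roots. This total follows all other genes too. TMM scaling moved the shoot libraries by a median log2 factor of -0.68 and the soil root libraries by 0.41, and without it the median gene of the genome was at -1.22, as against -0.15 with it. Relative to the scaled libraries 12 of 48 loci (25%) were called, 4 higher and 8 lower, against a background of 65.3% of all genes, 28.6% higher and 36.7% lower, and the median of the 48 was -0.12.

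The loci lower in shoots included the main ribosomal RNA loci again. ATMG00020 was at 315 to 1123 CPM in shoots (median 796) and rrn18 (ATMG01390) at 31.1 to 156 CPM (median 79.6), both below every soil root library, with log2 fold changes of -0.94 (SE 0.124) and -1.01 (SE 0.130). In CPM, 47.5% of all genes did not overlap between these sets, 8.67% higher and 38.8% lower in shoots. ATMG01350 (log2 fold change -1.57) and rps12 (ATMG00980, -1.08) were the others of the 4 largest decreases, and ATMG00030 was at -0.58. rps3 (ATMG00090) and atp1 (ATMG01190), which stood out between the root sets, had -0.40 and -0.13 here and were not called.

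The 4 loci called higher in shoots were ATMG01020 (log2 fold change 1.43), atp6-1 (ATMG00410, 1.42, SE 0.118), ATMG00670 (1.31) and the complex I gene nad7 (ATMG00510, 0.65). In CPM, atp6-1 was at 3.38 to 10.6 in soil roots (median 7.28) and at 5.48 to 13.2 in shoots (median 8.87), so that the unscaled values overlapped widely. Without scaling beyond total reads none of the 4 was called and nad7 was at -0.42, while 42 of the 48 loci were called, all lower. In that fit 17949 of all 20347 genes were called, in either direction. The median log2 fold change of the 48 was -1.21, as against -1.22 over all genes.

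Libraries of the same set differed severalfold in their mitochondrial reads, and they did so together with chloroplast reads. Over the tested loci above 0 in every library (30, 42 and 33 of 48), the median ratio of the highest to the lowest library was 11 in plate roots, 3.49 in soil roots and 4.57 in shoots. The share of reads on the 114 chloroplast loci (identifiers beginning with ATCG) was between 0.0467% and 0.727% in plate roots, between 0.580% and 1.40% in soil roots and between 3.70% and 16.8% in shoots. Libraries with few chloroplast reads had few mitochondrial reads in each set.

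On log2 values, the chloroplast share and the share of mitochondrial loci other than ribosomal RNA were correlated over 28 plate root libraries (Pearson r = 0.979, Spearman rho = 0.989). Over 29 soil root libraries they were 0.950 and 0.913, and over 29 shoot libraries 0.802 and 0.846. Each had a permutation P of 1e-05, the smallest possible, and 2.571e-05 after adjustment over 18 relations. Without the 2 libraries farthest from the median chloroplast share r was 0.975, 0.934 and 0.782, and within libraries of the same replicate number it stayed between 0.534 and 0.989. For ribosomal RNA r was 0.890, 0.662 and 0.794 and rho 0.888, 0.648 and 0.689 (adjusted permutation P at most 0.00045), and within replicate numbers r ranged from 0.210, in shoots, to 0.971, in plate roots. The number that each library carries in the deposited data was related to the share of the other mitochondrial loci too, with r = -0.461, -0.413 and -0.684 and rho = -0.401, -0.423 and -0.706 (adjusted permutation P at most 0.0404). Within replicate numbers that r lay between -0.561 and -0.290 in plate roots, between -0.641 and 0.214 in soil roots and between -0.587 and 0.0267 in shoots, so that in the soil sets it did not hold within each number. In plate roots the library numbers ran in blocks by genotype and ploidy, also within replicate numbers. The relation there cannot be told apart from differences between these groups. The median share of these loci in libraries numbered 1, 2 and 3 was 0.386%, 0.288% and 0.273% in soil roots and 0.157%, 0.117% and 0.0922% in shoots. Chloroplast and mitochondrial reads are shares of the same total.

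**Figure D4:**
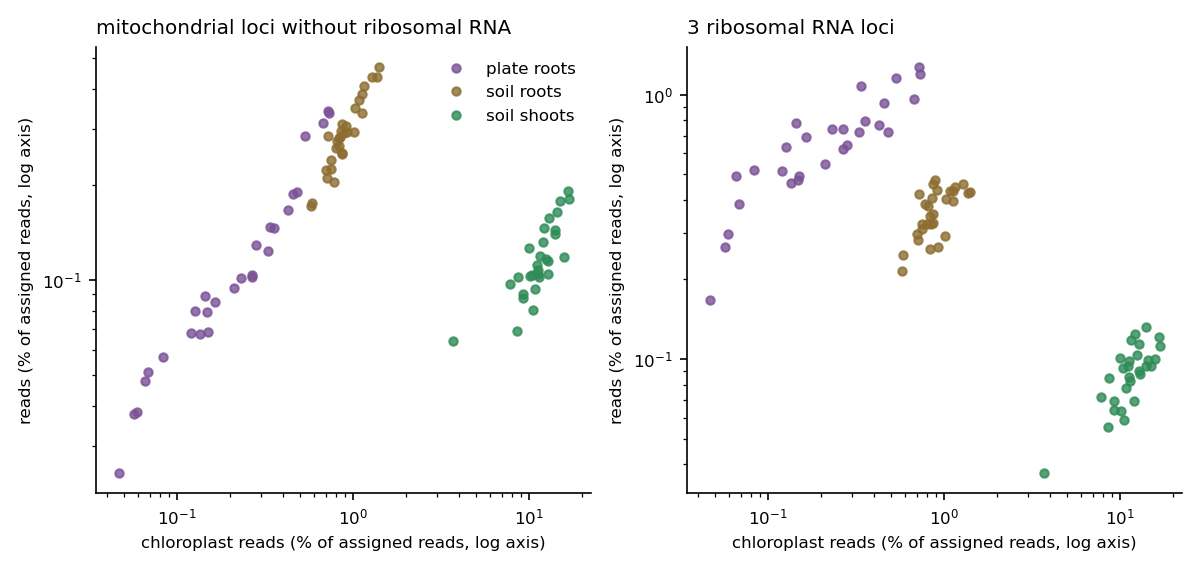
Share of reads on chloroplast loci (x axis) against that on mitochondrial ribosomal RNA and on other mitochondrial loci (y axes), in percent of assigned reads on log axes, with 1 point per library coloured by set. For loci other than ribosomal RNA the points of each set lie along a line, with r = 0.979 in plate roots, 0.950 in soil roots and 0.802 in shoots.

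No difference between ploidies in the share of mitochondrial reads passed the test. Averaged over genotypes, the neo-tetraploids differed from the diploids by 0.19 on the log2 scale in plate roots (SE 0.226, exact permutation P = 0.449), by -0.03 in soil roots (SE 0.111, P = 0.777) and by 0.05 in shoots (SE 0.147, P = 0.758), and in each set 2 of 5 genotypes were higher in 4x. For single loci, edgeR called 0 of 48 in plate roots, 0 in soil roots and 0 in shoots, against backgrounds of 0.182%, 0.816% and 14% of all genes. At an unadjusted P under 0.05 there were 3, 1 and 2 loci, DESeq2 called 0 in each set, and limma-voom called 0, 0 and 1. The median log2 fold changes of the 48 were 0.05, 0.14 and -0.05. In shoots the lowest edgeR adjusted P among the 48 was 0.0278, for a locus whose log2 fold change was under the size required for a call. ATMG01260 in shoots was at 1.04 with an edgeR adjusted P of 0.052, chosen after its value was seen. It was called with 5 of the alternative settings, at 1.00 to 1.78. The ploidy effect in shoots differed from that in soil roots for 0 loci, with 2 at an unadjusted P under 0.05 and 0 by DESeq2 and limma-voom, where 9.22% of all genes were called.

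Within single genotypes, 8 of 240 tests of a locus in a genotype were called in plate roots (background 0.579%), and all 8 were in chx25-3 with the higher value in 4x. In that genotype they were 16.7% of the 48 loci, beside 2.81% of all genes called, 1.97% higher in 4x. Of the 48 loci 42 had a positive log2 fold change, with a median of 1.05, as against 0 over all genes. DESeq2 called 12 in the 5 genotypes and limma-voom 6.

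The lowest adjusted P was that of ATMG00500. In chx25-3 it was at 38.3, 70.1 and 81.9 CPM in the diploid libraries and at 188, 285 and 188 CPM in the neo-tetraploid ones, a log2 fold change of 1.75 (SE 0.303, edgeR adjusted P = 0.00122). In WT it was at 314, 263 and 103 CPM in 2x and at 172, 198 and 162 CPM in 4x. The neo-tetraploid chx25-3 libraries thus lay in the range of the wild type, and the diploid chx25-3 libraries below it.

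The ribosomal RNA loci had the same order in chx25-3. ATMG00020 was at 1466, 2589 and 4298 CPM in 2x and at 6633, 9390 and 6019 CPM in 4x (log2 fold change 1.35, SE 0.385, edgeR adjusted P = 0.0388). rrn5 (ATMG01380) was at 17.3, 51.4 and 52.0 CPM in 2x and at 153, 261 and 166 CPM in 4x (2.22, SE 0.414, adjusted P = 0.00163 by edgeR). Neither pair of groups overlapped.

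Of the others, ATMG00170 went from 0, 1.17 and 0.423 CPM in 2x to 8.31, 10.6 and 5.66 CPM in 4x (log2 fold change 3.65, SE 0.807, edgeR adjusted P = 0.00626). ATMG01260 was at 0 in all 3 diploid libraries and at 3.38, 4.79 and 0 CPM in 4x, so that no fold is given. ccmFC (ATMG00180), nad4 (ATMG00580) and nad9 (ATMG00070, named after its value was seen) had log2 fold changes of 1.78, 2.44 and 1.03. Of the 48 tested loci, 22 had every 4x library above every 2x library and 0 had every 4x library below. Of all genes tested, the same 6 libraries did not overlap for 25.7%, and for 15.3% the 4x libraries were the higher ones. The 22 loci held each of the 8 called ones other than ATMG01260.

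**Figure D5:**
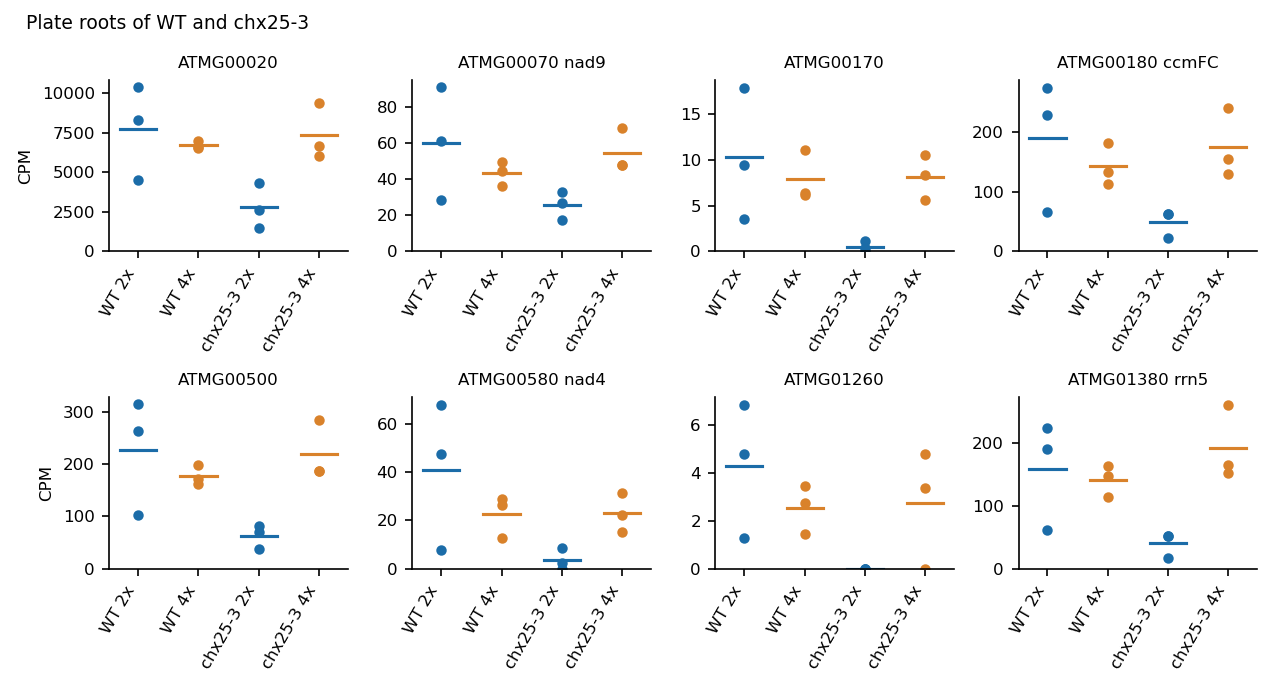
CPM of the loci called between 2x and 4x chx25-3 in plate roots, with WT beside them, 1 point per library. In chx25-3 2x ATMG00500 is at 38.3 to 81.9 CPM and in 4x at 188 to 285 CPM, and the wild-type libraries of both ploidies lie between 103 and 314 CPM.

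Chloroplast reads moved in the same libraries. The diploid chx25-3 libraries had 0.0467%, 0.0593% and 0.0659% chloroplast reads and 0.191%, 0.336% and 0.541% mitochondrial reads, and the neo-tetraploid ones 0.265%, 0.338% and 0.164% and 0.848%, 1.22% and 0.776%. With the chloroplast share as a covariate, rrn5 (ATMG01380) alone was called (log2 fold change 1.12, edgeR adjusted P = 0.0475), and the median of the 48 loci was 0.14. The count also rested on single libraries. It was 1 without diploid replicate 1, which at 3292996 reads was the shallowest library, and 4 without diploid replicate 2, 4 without neo-tetraploid replicate 1 and 3 without neo-tetraploid replicate 2.

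In soil roots 0 of 240 tests within genotypes were called by edgeR (background 0.0216%), 18 had an unadjusted P under 0.05, and DESeq2 and limma-voom called 0. In shoots 2 were called (background 4.74%), with 1 by DESeq2 and 2 by limma-voom. ATMG00250 in rhd6-3/rsl1-1 was at 9.10, 12.1 and 14.3 CPM in 2x and at 25.3, 29.7 and 18 CPM in 4x, without overlap, a log2 fold change of 0.87 (SE 0.236, edgeR adjusted P = 0.00753, 13.5% of all genes called in that genotype). ATMG01060 in esb1-1 had 9, 11 and 4 reads in 2x and 1, 0 and 1 in 4x (edgeR adjusted P = 0.0251, 2.88% of all genes called in that genotype), so that no fold is given. Without replicate 2 of 2x esb1-1, replicate 1 of 4x esb1-1 or replicate 2 of 4x rhd6-3/rsl1-1 the count was 1. In esb1-1 shoots same-numbered libraries of the 2 ploidies deviated together (correlations 0.354 to 0.511), and with the replicate number as a block ATMG00370 was called there as well (log2 fold change -0.80, edgeR adjusted P = 0.0425, named after its value was seen), which made 3.

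No mutant passed the test against WT for the share of mitochondrial reads in any set after adjustment. The largest difference was that of rhd6-3/rsl1-1 in plate roots, 0.89 lower on the log2 scale (-0.89, SE 0.317, exact permutation P = 0.025, 0.2125 after adjustment). Its diploid libraries had 0.303% and 0.561% mitochondrial reads and its neo-tetraploid ones 0.438% to 0.723%, where WT had 0.576% to 1.44% in 2x and 0.844% to 0.871% in 4x. chx25-3 was 0.73 lower in plate roots (-0.73, SE 0.309, exact permutation P = 0.115). The smallest exact P that these tests could give was 0.005.

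For single loci averaged over ploidies, 6 of 192 tests of a mutant against WT were called in plate roots (background 3.14%), 12 by DESeq2 and 6 by limma-voom. In rhd6-3/rsl1-1, atp1 (ATMG01190) was at 0 and 5.76 CPM in 2x and at 7.43, 9.60 and 6.26 CPM in 4x, where WT had 77.9, 42.3 and 4.53 CPM in 2x and 12, 16.7 and 6.64 CPM in 4x. The groups overlapped, and the log2 fold change was -2.06 (SE 0.511, edgeR adjusted P = 0.00529, with 6.33% of all genes called in that mutant). It ranged from -5.75 to -1.61 over 11 fits that each left out a library. The identical copy AT2G07698, which can take reads of atp1, was at 8.08 to 63.6 CPM over all plate libraries. ATMG00170 in chx25-3 was at 0 to 1.17 CPM in 2x and 5.66 to 10.6 CPM in 4x, where WT had 3.57 to 17.9 CPM in 2x and 6.13 to 11.1 CPM in 4x, a log2 fold change of -1.84 (SE 0.501, edgeR adjusted P = 0.0282, 2.71% of all genes called). The remaining calls were rps3 (ATMG00090) at -1.66 in rhd6-3/rsl1-1, ATMG00370 at -0.67 and cox3 (ATMG00730) at -1.14 in chx25-3, and ATMG00630 at 1.57 in esb1-1 (3.42% of all genes called).

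These counts also rested on single libraries. The count of 6 was 21 without replicate 3 of 2x WT, 2 without its replicate 1, 2 without its replicate 2, 10 without replicate 2 of 2x rhd6-3/rsl1-1, 3 without replicate 1 of 2x chx25-3 and 3 without replicate 3 of 4x chx25-3. With the chloroplast share as a covariate it was 0.

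In soil roots 0 of 192 were called by edgeR (background 0.448%, 7 at an unadjusted P under 0.05, 0 by DESeq2 and limma-voom). In a fit of soil roots alone 2 were called, ATMG00513 in rhd6-3/rsl1-1 at -1.73 and ATMG01350 in esb1-1 at -0.96 on the log2 scale, and with library number as a covariate ATMG00513 at -1.76, all named after their values were seen. In shoots 2 were called (background 1.03%), both in esb1-1, in which 3.93% of all genes were. ATMG00250 was at 17.5, 19 and 22.5 CPM in 2x esb1-1 and at 15.9, 13.5 and 11 CPM in 4x, where WT had 14.4, 11.7 and 11.4 CPM in 2x and 11.3, 9.25 and 14 CPM in 4x. The groups overlapped in 4x, and the log2 fold change was 0.59. That of ATMG01170 was 0.56. The count was 1 without replicate 1 of 4x WT and 0 without replicate 2 of 2x esb1-1.

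A ploidy effect that differed from that of WT was called for 1 of 576 tests (background 0.0393%), with 48 at an unadjusted P under 0.05, 5 called by DESeq2 and 1 by limma-voom. It was ATMG00500 in chx25-3 plate roots, whose values are given above, with a difference of 2.09 on the log2 scale (SE 0.419, edgeR adjusted P = 0.015, 0.0983% of all genes called in that contrast). The count of calls was 0 without replicate 1 or 2 of 2x WT, replicate 1 or 3 of 4x WT, replicate 1 of 2x chx25-3 or replicate 2 of 4x chx25-3. It was 10 without replicate 3 of 2x WT, 3 without replicate 3 of 2x chx25-3 and 2 without replicate 3 of 4x chx25-3.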

How the data were processed

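QuantSeq 3′ mRNA libraries (oligo-dT primed, single-end) were sequenced and quantified with Salmon by the authors, whose deposited expected counts (NumReads) and TPM are per transcript (81620 transcripts). The Salmon version, transcript set and genome build are not given in the sources used here. Between 38.9% and 59.0% of the values of member transcripts in a library were not whole (tolerance 0.0005), so that reads were shared between similar transcripts. The gene table of deposited TPM equalled the sums of the transcript files and was used as a check.

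Expected counts were summed per gene, rounded to whole numbers and fitted in edgeR 4.0.16 (R 4.3.3) with 1 mean per group over 86 libraries, TMM scaling and a filter of 2 CPM in at least 6 libraries (20347 genes). Calls needed a Benjamini-Hochberg adjusted P under 0.05 and a log2 fold change of 0.5, per contrast. limma 3.58.1, DESeq2 1.42.0, other scalings and filters, covariates (chloroplast share, library number), a replicate block, added chromosome 2 copies and libraries left out were alternatives. Shares of reads were tested by permutation within genotype and ploidy, or within set. Scripts were tested on simulated data. Copies were searched with blastn 2.17.0 (e-value 1e-10). Library depth is in the text above, and counting error is smaller for loci with more reads.

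A rule named the 10 loci with most reads and the ribosomal RNAs. For the comparisons of sets and of mean ploidy it added the 4 called loci of largest fold in each direction. Elsewhere it added the 2 of largest fold per set. Other loci in the text were named outside this rule, and their choice was not fixed before their values were seen. Between the root sets these included most ribosomal protein genes and several genes of the respiratory chain. Members and lists were chosen with earlier results of these data known.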

Additional observations from a re-analysis of the deposited data

Results flagged for a closer look

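The ploidy effect of ATMG00500 in plate roots differed between chx25-3 and WT by 2.09 on the log2 scale, by the interaction test of edgeR (adjusted P = 0.015). The diploid chx25-3 libraries were at 38.3, 70.1 and 81.9 CPM and the neo-tetraploid ones at 188, 285 and 188 CPM, against 314, 263 and 103 CPM and 172, 198 and 162 CPM in WT. With the chloroplast share as a covariate the difference was 1.15 (edgeR adjusted P = 0.988), and in a fit of plate roots alone 2.095 (edgeR adjusted P = 0.238). Leaving out 1 of the 12 libraries in turn gave 1.84 to 2.41, and 6 of the 12 lost the call. The part of these libraries' chloroplast share and depth in the difference was not tested beyond the covariate.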

How the results depend on the processing

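The count of loci called between soil roots and plate roots was 28 to 33 of 48 over the alternatives with the same filter, beside 9614 to 10098 of all 20347 genes. It was 29 or 30 when libraries were left out. Between shoots and soil roots 22 of 116 were called without a filter and 42 without scaling, where 15027 and 17949 genes of the genome were called. For mean ploidy in shoots 1 was called with the chloroplast share, library number, limma-voom, no scaling or the replicate block. Ploidy within genotypes gave, in plate roots, 1 with the chloroplast share, 5 in a fit of the set alone, 3 with library number and 4 without a filter, and in shoots 1 by DESeq2, 4 with the chloroplast share and 0 in a fit of the set alone. Mutants against WT gave, in plate roots, 12 by DESeq2, 0 with the chloroplast share, 12 with copies added, 0 with library number and 14 without scaling, in soil roots 2 in a fit of the set alone and 1 with library number, and in shoots 4 with copies added and 0 with the set alone or without scaling. The interaction gave 5 by DESeq2, 0 with the chloroplast share or the set alone, 2 with copies added, 4 with library number and 2 without scaling. Correlations of deviations between ploidies in same-numbered libraries ran from -0.69 to 0.62 over 41 pairs, 24 above 0.1. Replicate numbers did not pair the whole of plate roots (4 of 13 pairs above 0.1) or of soil roots (9 of 14, from -0.26 to 0.45). In shoots all 14 pairs were above 0 (0.0026 to 0.52), 11 of them above 0.1. Each pair of WT and of esb1-1 in both soil sets was above 0.1. The main tests held no block. With the replicate number as a block, ATMG01260 was called for mean ploidy in shoots (log2 fold change 1.00, edgeR adjusted P = 0.0465). The replicate block gave 18 calls for mutants in plate roots, 1 in soil roots and 5 for the interaction. Without scaling, shoots against soil roots turned to -0.80 for ATMG00500, -1.04 for ATMG00180, -0.80 for ATMG00580 and -0.42 for ATMG00510, and with library number ATMG00170 in chx25-3 against WT on plates turned to 2.07. Plate library numbers ran in blocks by genotype and ploidy, from WT (1 to 6) to chx25-3 (25 to 30). The plate values with library number thus extend a slope taken within groups, and they cannot separate number from genotype or ploidy. Log2 differences of shares turned in soil roots against plate roots (1.51 without ribosomal RNA, 0.029 with copies, 0.39 on TPM; -0.80 and past the threshold for ribosomal RNA alone), in 4x against 2x soil roots (0.047 without ribosomal RNA, 0.068 on TPM), and for mutants on plates (sos3-2 0.15 without ribosomal RNA and 0.35 on TPM; esb1-1 0.37, 0.34 and, with copies, 0.026) and in soil roots (esb1-1 0.11 for ribosomal RNA alone). Libraries left out 1 at a time (44 for tests of loci, 12 between sets, all for shares) gave 0 to 1 calls for mean ploidy in shoots and for its difference from soil roots, 1 to 9 for ploidy within genotypes in plate roots and 1 to 3 in shoots, 2 to 21 for mutants in plate roots and 0 to 2 in shoots, and 0 to 10 for the interaction. Shares ranged from -0.071 to 0.034 for ploidy in soil roots, -0.0085 to 0.14 in shoots, -0.32 to 0.23 for sos3-2 on plates, -0.29 to 0.12 for esb1-1 on plates, -0.12 to 0.10 in soil roots and -0.030 to 0.33 in shoots, and in shoots -0.037 to 0.32 for rhd6-3/rsl1-1 and -0.00016 to 0.36 for chx25-3. The causes were not tested. Loci with few reads are limited by depth.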

Other observations

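The nuclear lists were also counted between shoots and soil roots, where 28.6% of all genes were called higher and 36.7% lower in shoots. Of the 7 mitochondrial stress genes, 6 were higher and 1 lower in shoots than in soil roots, with AOX1A (AT3G22370) at 2.08 on the log2 scale, and of the 22 nuclear respiratory subunits 5 were higher and 0 lower, with CYTC-2 (AT4G10040) at 1.65. Of the 14 genes for RNA polymerases and RNA processing 2 were higher and 2 lower. Averaged over genotypes, 2 stress genes were higher and 1 lower in neo-tetraploid shoots, while the lists for RNA polymerases and RNA processing and for respiratory subunits held 0 called genes there, beside 14% of all genes called. In plate roots and soil roots none of the 3 lists held a gene called for mean ploidy by edgeR.

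A pair of libraries stayed outside the groups, since their titles and genotype labels named different lines. The soil root library had 7669488 assigned reads, 0.719% mitochondrial and 1.28% chloroplast, with ATMG00020 at 2960 CPM, ATMG00030 at 1984 CPM, ATMG00090 at 137 CPM and ATMG01190 at 88.5 CPM. The shoot library had 7277405 assigned reads, 0.269% mitochondrial and 15% chloroplast, with 826, 789, 54.4 and 61.3 CPM for the same loci.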
